A study of Mus musculus with 16 samples.

Results

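The genes described here are the 7 EGF-family and FGF receptor genes Egfr, Erbb2, Erbb3, Erbb4, Fgfr1, Fgfr2 and Fgfr3, taken by name from the 27179 genes counted in each library. They were followed in mouse neural stem and progenitor cells isolated at E14.5 from dissected foetal cortex and ganglionic eminence and grown as floating neurospheres. Null cells came from Kat7lox/lox foetuses, which lack the histone acetyltransferase KAT7 (also called HBO1) once Cre has acted, and intact cells from Kat7+/+ foetuses. Both genotypes carried 1 copy of the NesCreT transgene, in which Nestin sequences drive Cre in neural progenitors, so Cre was present in the controls too. Proliferating cells were kept for 3 passages and 3 days in proliferation medium. Differentiating cells were plated on laminin after passage 3 and kept for 3 days in a medium made for cortical neurons. Each of the 4 combinations of genotype and stage had 4 libraries of polyadenylated RNA, from 4 foetuses per genotype. Whether the same foetuses gave both stages is not stated in the labels.

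Both receptor families are single-pass receptor tyrosine kinases. A ligand joins receptors into pairs, the kinases phosphorylate each other, and adaptors pass the signal to the RAS-ERK and PI3K pathways. EGFR binds EGF, TGF-alpha, HB-EGF and amphiregulin. ERBB4 and ERBB3 bind neuregulins, ERBB3 has little kinase activity of its own, and ERBB2 has no known ligand and acts as the preferred partner of the others. FGFR1, FGFR2 and FGFR3 bind FGFs together with heparan sulfate. EGF and FGF2 are the mitogens commonly used to keep neurospheres dividing, FGFR3 is a gene of radial glia and astrocytes, and ERBB3 and FGFR2 are known in the oligodendrocyte lineage.

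Library totals were 16784286 to 47890535 counts. Kat7 had 8 counts over the 4 null proliferating libraries and 1 over the 4 null differentiating libraries, against 140 ± 2.21 and 109 ± 2.004 CPM (a gene's counts over each 1 M counts in its library, given as mean ± SD over n = 4 libraries) in intact proliferating and differentiating cells. Stem cell markers were present in every group: the 7 genes Nes, Sox2, Pax6, Vim, Fabp7, Hes5 and Prom1 summed to 6538 to 6875 CPM in intact and 6092 to 6540 CPM in null proliferating libraries, and to 2579 to 3628 CPM in intact and 3827 to 4845 CPM in null differentiating libraries. Of these 7 markers, 5 were higher and 0 lower in null differentiating cells, the stage at which Egfr, Erbb2, Fgfr1 and Fgfr3 were higher too, and 1 was higher and 1 lower in null proliferating cells. Of all genes tested, 24.3% were higher and 22.0% lower in null differentiating cells, and 19.0% higher and 19.7% lower in null proliferating cells. The cultures held markers of several lineages. The summed level of 9 astrocyte markers was 1302 to 2151 CPM in intact and 2469 to 3648 CPM in null proliferating libraries, and 1994 to 3252 CPM in intact and 5684 to 8848 CPM in null differentiating libraries. The 6 myelin markers summed to 110 to 771 CPM in intact proliferating, 64.6 to 109 CPM in null proliferating, 2748 to 6106 CPM in intact differentiating and 359 to 486 CPM in null differentiating libraries. Of 8 microglial markers, C1qa and C1qc were at 0 counts in all groups and the sum was at most 0.620 CPM. The 6 endothelial markers summed to at most 4.97 CPM. In bulk RNA, fewer cells of a type and less RNA per cell cannot be told apart. The part of these marker differences in the receptor differences was not tested.

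RefSeq promoter sequences (GRCm38.p6; 250 bases before to 50 bases after a gene start) were matched for 5 of the 7 genes, in 6 windows. Of these, 4 windows are shown because Egfr, Erbb2 and Fgfr3 fell together on differentiation of intact cells and differed between genotypes, whereas Fgfr2 went the other way. They are written 5′ to 3′ on the strand of the gene, and capitals mark the GC box, GGGCGG or its reverse complement CCGCCC.
Egfr, chr11:16751953-16752252, plus strand: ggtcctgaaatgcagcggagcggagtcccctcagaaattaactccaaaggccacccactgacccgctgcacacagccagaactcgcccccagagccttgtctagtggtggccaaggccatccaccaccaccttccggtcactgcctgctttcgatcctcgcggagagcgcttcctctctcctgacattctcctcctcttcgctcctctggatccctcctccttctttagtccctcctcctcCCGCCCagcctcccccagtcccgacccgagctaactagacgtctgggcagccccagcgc
Erbb2, chr11:98412234-98412533, plus strand: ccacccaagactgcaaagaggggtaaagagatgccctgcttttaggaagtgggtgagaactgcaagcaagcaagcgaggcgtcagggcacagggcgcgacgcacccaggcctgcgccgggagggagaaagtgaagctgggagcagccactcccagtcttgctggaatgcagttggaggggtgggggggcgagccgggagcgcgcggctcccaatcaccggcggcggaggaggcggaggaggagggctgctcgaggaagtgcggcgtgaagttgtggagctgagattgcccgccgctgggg
Fgfr3, chr5:33721474-33721773, plus strand: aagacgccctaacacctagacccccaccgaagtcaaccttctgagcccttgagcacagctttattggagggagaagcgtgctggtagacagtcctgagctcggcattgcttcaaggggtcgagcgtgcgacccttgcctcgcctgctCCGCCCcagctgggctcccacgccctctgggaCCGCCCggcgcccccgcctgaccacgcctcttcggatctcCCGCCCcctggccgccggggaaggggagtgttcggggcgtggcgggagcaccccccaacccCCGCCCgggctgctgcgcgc
Fgfr2, chr7:130266759-130267058, minus strand: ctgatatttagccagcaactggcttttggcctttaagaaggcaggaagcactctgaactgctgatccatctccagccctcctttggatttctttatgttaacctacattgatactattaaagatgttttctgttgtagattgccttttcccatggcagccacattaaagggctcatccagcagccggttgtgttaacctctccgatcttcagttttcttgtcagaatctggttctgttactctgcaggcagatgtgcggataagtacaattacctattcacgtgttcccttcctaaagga
The Egfr, Erbb2 and Fgfr3 windows had a GC content of 62.3%, 66.0% and 69.7% and 15, 21 and 26 CpG dinucleotides. The Fgfr2 window had 43.7% GC and 4 CpG, on either side of a median of 52.7% GC and 7 CpG over all 32851 promoters. Erbb4 also rose on differentiation of intact cells, and its window, not shown, lay above both medians with 55.3% GC and 17 CpG. The GC box was found 4 times in the Fgfr3 window and 1 time in the Egfr window, and in neither the Erbb2 nor the Fgfr2 window. It is present on either strand in 35.7% of all promoters. The second Fgfr3 window held 2 overlapping copies. The letters TATAAA, present on either strand in 13.6% of all promoters, were in none of the 6 windows. These are descriptions of the sequence, and no chromatin or binding data were used here. No window was matched for Fgfr1, which fell on differentiation of intact cells, or for Erbb3, which rose. The shown windows were chosen by response, and a relation between sequence and response was not tested.

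Per kilobase of gene model, the scale on which genes can be set side by side, the 2 families were led by Egfr and Fgfr1 in proliferating cells. In intact proliferating cells Egfr stood at 65.8 ± 3.46 CPM per kilobase (mean ± SD, n = 4), above Fgfr1 at 49.6 ± 4.39. Fgfr3 followed at 49.0 ± 8.93, and its libraries overlapped those of Fgfr1. Fgfr2 (6.93 ± 6.34) and Erbb2 (6.64 ± 0.285) also overlapped each other, and Erbb4 (2.03 ± 0.817) and Erbb3 (0.0699 ± 0.0486) were lowest. In null proliferating cells the order was Egfr (77.7 ± 3.79), Fgfr1 (63.0 ± 4.07), Fgfr3 (25.1 ± 3.25), Fgfr2 (11.96 ± 1.67), Erbb2 (4.97 ± 0.407), Erbb4 (0.546 ± 0.299) and Erbb3 (0.0186 ± 0.0103), with no overlap between neighbours. After differentiation of intact cells, Egfr had dropped to the fifth place at 10.1 ± 2.17. It lay below Fgfr2 (25.3 ± 5.28), Fgfr1 (25 ± 1.44) and Fgfr3 (22.2 ± 2.98), whose libraries overlapped, and overlapped Erbb4 (11.6 ± 2.09). Erbb2 (3.76 ± 0.667) and Erbb3 (0.484 ± 0.319) were below these. In null differentiating cells Egfr was still the highest at 50.9 ± 2.29, followed by Fgfr1 (42.2 ± 5.49) and Fgfr3 (37.2 ± 1.46), which overlapped, and then by Fgfr2 (21.8 ± 2.31), Erbb4 (13.3 ± 1.77), Erbb2 (5.71 ± 1.02) and Erbb3 (0.0811 ± 0.0201).

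**Figure D1:**
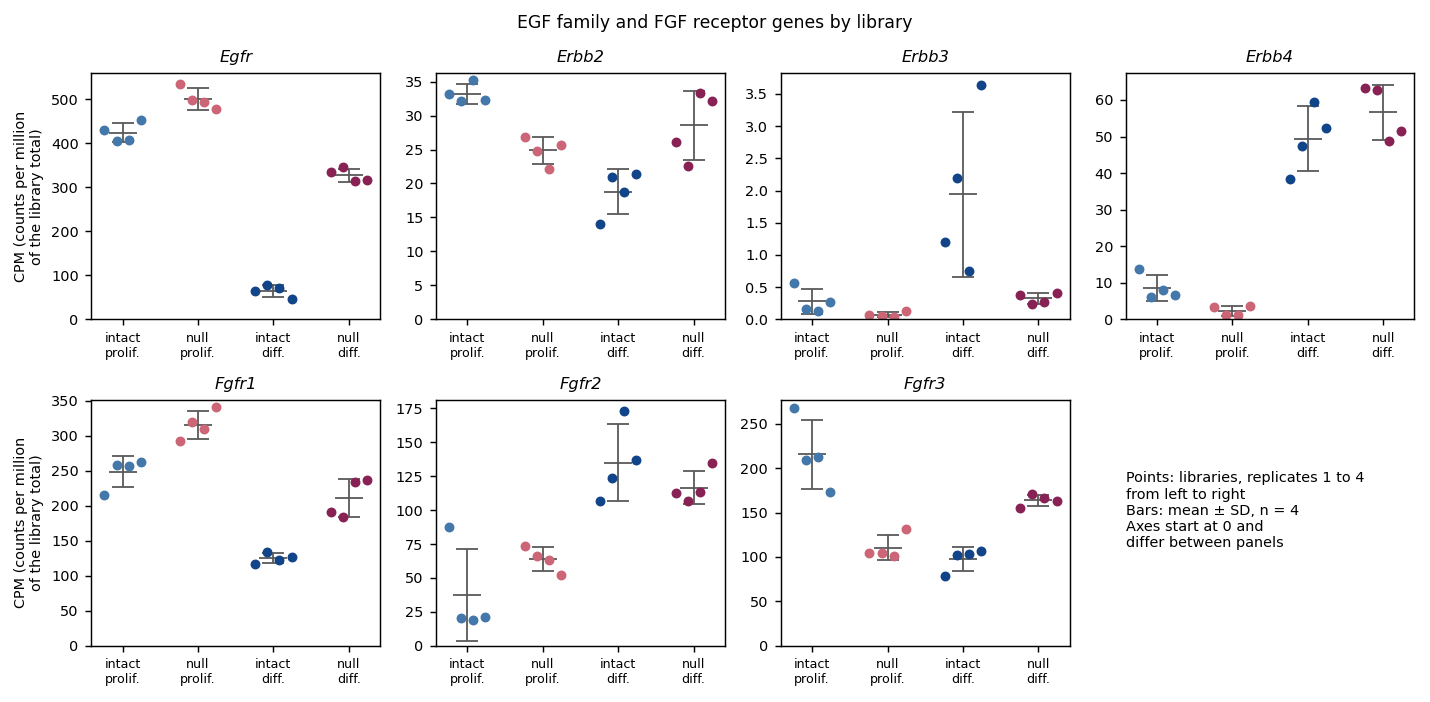
CPM of each of the 7 receptor genes (vertical axes, linear scale, differing between panels) in the 4 groups, 1 point per library. Intact differentiating libraries stand lowest for Egfr, Erbb2 and Fgfr1, and 1 intact proliferating library stands at 87.9 CPM for Fgfr2 while the other 3 lie between 18.6 and 21.0 CPM.

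On differentiation of intact cells, all 7 genes changed. Egfr, Erbb2, Fgfr1 and Fgfr3 fell and Erbb3, Erbb4 and Fgfr2 rose. Of all 15177 genes tested, 72.0% were called in this comparison (36.7% higher, 35.3% lower; edgeR quasi-likelihood test over 16 libraries, Benjamini-Hochberg adjusted p under 0.05), so a count of 7 of 7 stands against a high background. The median log2 fold change of the 7 genes was -0.90, against 0.02 over all genes tested. In null cells 5 of the 7 were called, against 69.0% of all genes tested (34.6% higher, 34.4% lower): Egfr and Fgfr1 fell, and Erbb3, Erbb4 and Fgfr3 rose. Their median log2 fold change was 0.51, against 0.02 over all genes. The interaction means the response of null cells less that of intact cells. It was called for 5 of the 7 genes, all with the higher response in null cells, against 22.7% of all genes tested (12.7% higher, 9.93% lower). These 5 were Egfr, Erbb2, Erbb4, Fgfr1 and Fgfr3. Between genotypes, 4 of the 7 were called in proliferating cells (2 higher in null cells, 2 lower; 38.6% of all genes tested, 19.0% higher and 19.7% lower) and 5 of the 7 in differentiating cells (4 higher, 1 lower; 46.4% of all genes, 24.3% higher and 22.0% lower). These comparisons share libraries and are not independent. Tested against a minimum change of 1.5-fold instead of no change, 2 of the 7 were called in proliferating cells, 2 for the response of null cells and 3 for the interaction.

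**Figure D2:**
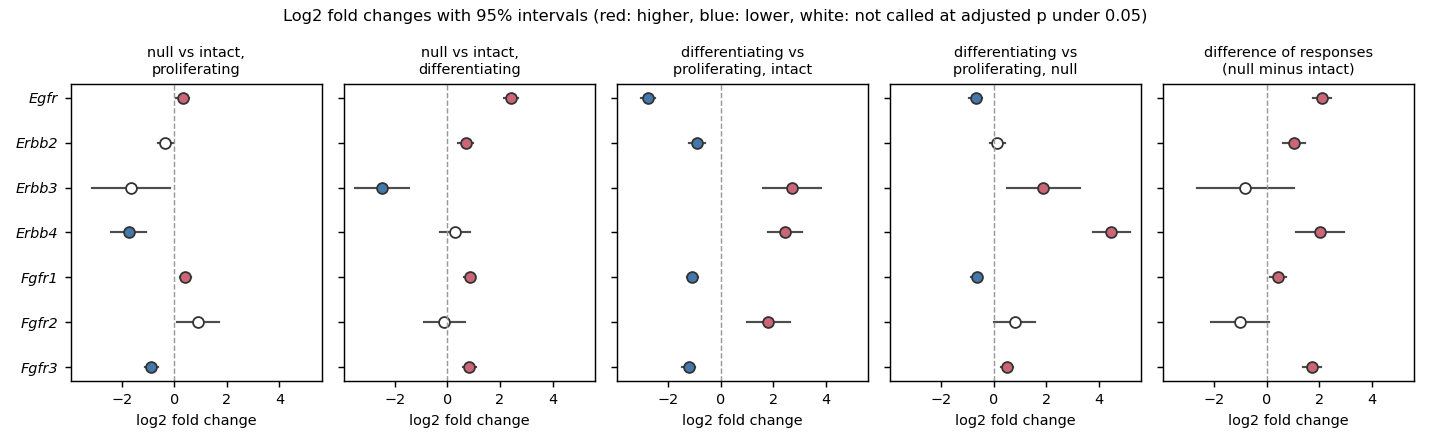
Log2 fold change (horizontal axis) of each receptor gene in the 5 comparisons, with bars for the 95% confidence interval of the edgeR fit and filled symbols for adjusted p under 0.05. Egfr lies at -2.78 for the response of intact cells and at -0.67 for that of null cells, and Fgfr3 lies at -1.21 and 0.51.

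Egfr (Entrez 13649; chromosome 11, 16752203 to 16913907, GRCm38) encodes the receptor for EGF. Its level was 429, 405, 408 and 453 CPM in intact proliferating libraries 1 to 4 and 534, 498, 493 and 476 CPM in null proliferating libraries. After differentiation it was 65.1, 78.5, 71.1 and 45.9 CPM in intact and 334, 345, 314 and 317 CPM in null libraries. Intact differentiating cells were low and the other groups high, and no groups overlapped. Egfr fell by 2.78 ± 0.124 (SE) on the log2 scale in intact cells (6.86-fold; adjusted p = 7.72e-11, edgeR quasi-likelihood test) and by 0.67 ± 0.116 in null cells (1.60-fold; adjusted p = 1.08e-04). The null response was higher by 2.10 ± 0.166 (adjusted p = 3.87e-06), and null differentiating cells exceeded intact ones by 2.42 ± 0.123 (5.35-fold; adjusted p = 7.11e-09). That fold change ranked 8th by p among all genes tested and its size was at the 92.6th percentile. In proliferating cells the difference was 0.32 ± 0.116 (1.25-fold; adjusted p = 0.0427), with no overlap between libraries. This small difference lost its call in 16 of 26 alternatives. Among them was leaving out intact proliferating library 1, 2 or 3 (0.30, 0.30 and 0.30; adjusted p = 0.0777, 0.0931 and 0.0897), null proliferating library 1, 2 or 3 (0.28, 0.33 and 0.32; adjusted p = 0.108, 0.0656 and 0.0661), intact differentiating library 3 (0.31; adjusted p = 0.0506) or any 1 null differentiating library (0.32; adjusted p = 0.0507 to 0.0521). With the replicate number as a block it was 0.31 (adjusted p = 0.0568), and scaled by library size only it was 0.24 (adjusted p = 0.114). The fall of Egfr in null cells had an adjusted p of 0.206 when tested against a minimum change of 1.5-fold.

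Erbb2 (Entrez 13866; chromosome 11, 98412484 to 98437716), the partner receptor without a ligand, was less abundant throughout. Its level was 33.2, 32.1, 35.2 and 32.2 CPM in intact proliferating, 26.9, 24.8, 22.1 and 25.7 CPM in null proliferating, 14.1, 21.0, 18.8 and 21.3 CPM in intact differentiating and 26.1, 22.6, 33.3 and 32.2 CPM in null differentiating libraries. Erbb2 fell by 0.90 ± 0.135 on differentiation of intact cells (adjusted p = 2.89e-05, edgeR). In null cells its libraries overlapped between stages, with a log2 fold change of 0.14 ± 0.133 (95% confidence interval -0.15 to 0.42; adjusted p = 0.369). The responses differed by 1.04 ± 0.190 (adjusted p = 0.00151), and null differentiating cells were higher than intact ones by 0.70 ± 0.134 (adjusted p = 6.25e-04). Tested against a minimum change of 1.5-fold, these values had an adjusted p of 0.0659 and 0.309. In proliferating cells the null libraries were all lower, with a log2 fold change of -0.34 ± 0.134 that was not called (adjusted p = 0.0571). It was called in 7 of 26 alternatives, among them without intact differentiating library 1 (-0.34; adjusted p = 0.0265), without null differentiating library 2 (-0.34; adjusted p = 0.0417) and in the DESeq2 test (-0.35; adjusted p = 0.0339).

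Erbb4 (Entrez 13869; chromosome 1, 68031884 to 69108576), a neuregulin receptor with a full kinase, started low and rose in both genotypes. Its level was 13.7, 6.20, 7.91 and 6.68 CPM in intact proliferating and 3.26, 1.19, 1.27 and 3.59 CPM in null proliferating libraries. It reached 38.3, 47.5, 59.5 and 52.5 CPM in intact and 63.3, 62.8, 48.8 and 51.5 CPM in null differentiating libraries. The genotypes did not overlap while proliferating and overlapped after differentiation. Null cells were lower while proliferating by a log2 fold change of -1.74 ± 0.318 (adjusted p = 5.79e-04, edgeR). After differentiation the difference was 0.29 ± 0.275 (95% confidence interval -0.30 to 0.87; adjusted p = 0.418). The rise was 2.45 ± 0.298 in intact (5.47-fold; adjusted p = 3.65e-06) and 4.48 ± 0.332 in null cells (22.3-fold; adjusted p = 2.02e-08), a difference of 2.02 ± 0.420 (adjusted p = 0.00339). The rise of Erbb4 ran beside that of GABAergic interneuron markers. All 9 of these rose in intact and 7 of 9 in null cells, with sums of 2.79 to 16.04 and 17.4 to 27.9 CPM in intact and null proliferating and 62.8 to 268 and 267 to 378 CPM in intact and null differentiating libraries. Sst was at 0 counts in null cells of both stages and Dlx6 in intact proliferating cells. The rise was not particular to this list: all 9 neuron and all 6 myelin markers rose in intact cells too. Over all genes tested, 36.7% rose in intact and 34.6% in null cells. While proliferating, the GABAergic sum was higher in null libraries, where Erbb4 was lower. Gad1 alone averaged 12.3 CPM of a mean sum of 21.2 CPM in null proliferating cells. Of the 9 markers, 2 were higher and 1 lower in null proliferating cells (19.0% and 19.7% of all genes tested). In null differentiating cells 3 were higher and 3 lower (24.3% and 22.0% of all genes tested). The interaction was called for 0 of the 9 GABAergic markers (median -0.55). The part of any of these markers in the Erbb4 level was not tested.

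Erbb3 (Entrez 13867; chromosome 10, 128567523 to 128589635), the neuregulin receptor that depends on a partner for kinase activity, was near the limit of detection except in intact differentiating cells. It had 23 counts over the 4 intact proliferating libraries (0.562, 0.160, 0.136 and 0.265 CPM) and 9 over the null proliferating libraries (0.0651, 0.0596, 0.0397 and 0.135 CPM). After differentiation it had 229 counts in intact (1.19, 2.19, 0.753 and 3.64 CPM) and 46 in null libraries (0.385, 0.242, 0.271 and 0.404 CPM). Intact differentiating libraries were highest and did not overlap the null ones. Erbb3 rose by 2.72 ± 0.513 in intact (adjusted p = 2.13e-04, edgeR; 3.41 without both intact libraries numbered 1) and by 1.90 ± 0.649 in null cells (adjusted p = 0.0146). The difference of the responses was -0.82 ± 0.865 (95% confidence interval -2.67 to 1.02; adjusted p = 0.543). In differentiating cells it was lower in null cells by a log2 fold change of -2.49 ± 0.477 (adjusted p = 5.74e-04). In proliferating cells the value was -1.66 ± 0.695 (adjusted p = 0.0636). Intact proliferating library 1 was the highest there, and without it the value was -1.14 (adjusted p = 0.222; -1.14 and 0.228 without both intact libraries numbered 1). It was called with the replicate number as a block (-1.75; adjusted p = 0.0308) and without intact proliferating library 3 (-1.89; adjusted p = 0.0492), intact differentiating library 3 (-1.67; adjusted p = 0.0376) or intact differentiating library 4 (-1.66; adjusted p = 0.0382). Oligodendrocyte lineage markers moved with Erbb3 only in part. On differentiation of intact cells all 6 myelin markers and 6 of 9 oligodendrocyte progenitor markers rose, while Cspg4, Olig1 and Olig2 fell (36.7% higher and 35.3% lower over all genes tested). In differentiating cells all 6 myelin markers and 6 of 9 progenitor markers were lower in null cells, against 22.0% of all genes tested. Cspg4, Olig1 and Olig2 were not called there. The progenitor sum was 2641 to 6721 CPM in intact and 2263 to 2814 CPM in null differentiating libraries. Mog, a late myelin gene, had 90 counts in intact and 1 count in null differentiating libraries, and was at 0 counts in intact proliferating ones. Their part in the Erbb3 level was not tested.

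Fgfr1 (Entrez 14182; chromosome 8, 25518759 to 25575718), by mean level per kilobase the first of the FGF receptor genes in proliferating cells, was higher in null cells at both stages. It stood at 216, 259, 257 and 262 CPM in intact and 292, 320, 309 and 341 CPM in null proliferating libraries. After differentiation it stood at 117, 134, 123 and 127 CPM in intact and 191, 184, 234 and 236 CPM in null libraries. The genotypes did not overlap at either stage. Null cells were higher by 0.42 ± 0.0978 while proliferating (1.33-fold; adjusted p = 0.00361, edgeR) and by 0.85 ± 0.0984 while differentiating (1.80-fold; adjusted p = 8.89e-06). Fgfr1 fell by 1.07 ± 0.0989 in intact cells (adjusted p = 2.18e-07) and by 0.64 ± 0.0979 in null cells (adjusted p = 3.54e-05). The difference of these responses was 0.43 ± 0.138 (adjusted p = 0.0363). It lost its call in 14 of 26 alternatives. Among these, 10 left out 1 library, namely intact proliferating 2, 3 or 4, intact differentiating 1 or 3, null proliferating 1, 2 or 3, or null differentiating 3 or 4. Their values were 0.37 to 0.43, with adjusted p = 0.0515 to 0.0769.

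Fgfr2 (Entrez 14183; chromosome 7, 130162451 to 130266808) was the member in which 1 library set the result. Its level was 87.9, 20.8, 18.6 and 21.0 CPM in intact proliferating and 73.8, 66.5, 63.2 and 52.3 CPM in null proliferating libraries. It was 106, 124, 173 and 137 CPM in intact and 112, 106, 113 and 135 CPM in null differentiating libraries. Intact proliferating library 1 exceeded every null proliferating library, while the other 3 were below all of them. Over all 4 libraries the genotype difference in proliferating cells was 0.90 ± 0.372 (adjusted p = 0.069, edgeR). Without intact proliferating library 1 it was 1.72 (adjusted p = 1.7e-06). Without that library and intact differentiating library 1 it was also 1.72 (adjusted p = 5.11e-07). With the replicate number as a block it was 1.04 (adjusted p = 0.0409), and in DESeq2 it was 0.89 (adjusted p = 0.0344). The same library stood apart for some marker lists but not for all. Its myelin markers summed to 771 CPM, against 110 to 160 CPM in the other intact proliferating libraries, its astrocyte markers to 2151 against 1302 to 1437 CPM, and its GABAergic markers to 16.04 against 2.79 to 3.16 CPM. Its oligodendrocyte progenitor markers summed to 3351 against 2947 to 3120 CPM. Its stem cell markers summed to 6664 CPM, within the 6538 to 6875 CPM of the other 3, and its neuron markers to 1061 against 1076 to 1090 CPM. The neuron sum was mostly Map2, at 974 CPM on average in intact proliferating libraries. Some other neuron markers spread widely over these libraries, with Tubb3 at 10.2 to 39.8, Dcx at 5.22 to 37.5 and Stmn2 at 0.374 to 15.8 CPM. Whether these marker levels belong to its Fgfr2 level was not tested. On differentiation Fgfr2 rose by 1.82 ± 0.378 in intact cells (adjusted p = 5.18e-04), by 2.64 (adjusted p = 2.61e-09) without intact proliferating library 1 and by 2.73 (adjusted p = 9.99e-10) without both intact libraries numbered 1. In null cells the value was 0.81 ± 0.366 (adjusted p = 0.0621), and its stages did not overlap. It was called without intact proliferating library 1 (0.81; adjusted p = 6.95e-05) or 3 (0.81; adjusted p = 0.0481), which enter the null response only through the shared estimate of the spread. A fit on only the 8 null libraries also called it (0.81; adjusted p = 1.09e-04), as did DESeq2 (0.82; adjusted p = 0.0325). The difference of responses was -1.01 ± 0.518 (adjusted p = 0.174), and without intact proliferating library 1 it was -1.84 (adjusted p = 3.27e-05). In differentiating cells the genotypes overlapped, with a log2 fold change of -0.12 ± 0.362 (95% confidence interval -0.89 to 0.65; adjusted p = 0.81).

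Fgfr3 (Entrez 14184; chromosome 5, 33721724 to 33737068) was the gene whose response changed direction. It stood at 268, 209, 212 and 173 CPM in intact and 105, 105, 101 and 132 CPM in null proliferating libraries. After differentiation it stood at 78.3, 102, 104 and 107 CPM in intact and 155, 170, 167 and 163 CPM in null libraries. The genotypes did not overlap at either stage, with intact cells higher while proliferating and null cells higher while differentiating. Null cells differed by -0.88 ± 0.114 while proliferating (1.84-fold lower; adjusted p = 3.22e-05, edgeR) and by 0.84 ± 0.114 while differentiating (1.79-fold higher; adjusted p = 3.34e-05). Fgfr3 fell by 1.21 ± 0.115 in intact cells (adjusted p = 2.76e-07) and rose by 0.51 ± 0.113 in null cells (adjusted p = 0.00102). The responses differed by 1.72 ± 0.161 (3.29-fold; adjusted p = 1.44e-05). The rise in null cells had an adjusted p of 0.836 when tested against a minimum change of 1.5-fold. Astrocyte markers are given beside it because FGFR3 is known in that lineage: 6 of 9 were higher and none lower in null differentiating cells, and 4 of 9 higher and none lower in null proliferating cells, where Fgfr3 was lower. Over all genes tested, 24.3% were higher in null differentiating and 19.0% in null proliferating cells. The part of the astrocyte markers in the Fgfr3 level was not tested.

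The composition of each family moved with these changes. Egfr made up 88.3 ± 1.23% (SD, n = 4) of the summed per-length level of the 4 EGF-family receptor genes in intact proliferating and 93.4 ± 0.727% in null proliferating cells. After differentiation it was 39.0 ± 7.37% in intact and 72.7 ± 0.641% in null cells. The Erbb4 share was 2.71 ± 1.03% and 0.654 ± 0.357% in intact and null proliferating and 44.6 ± 5.28% and 18.95 ± 1.75% in intact and null differentiating cells. The summed level of the family was 74.6 ± 3.58 and 83.3 ± 4.06 CPM per kilobase in intact and null proliferating cells, and 26.0 ± 3.12 and 70.0 ± 2.98 in intact and null differentiating cells. Among the 3 FGF receptor genes, intact differentiating cells held shares of 34.7 ± 3.34% for Fgfr1, 34.7 ± 3.81% for Fgfr2 and 30.6 ± 1.61% for Fgfr3, whose ranges over libraries overlapped in part. Null differentiating cells held 41.6 ± 2.55%, 21.5 ± 1.35% and 36.9 ± 2.84%. In proliferating cells the Fgfr3 share was 46.2 ± 3.91% in intact and 25.1 ± 1.92% in null cells. The Fgfr1 share was 47.6 ± 8.23% in intact cells, against 62.9 ± 1.496% in null cells. The summed FGF receptor level was 106 ± 10.5 and 100.1 ± 5.44 in intact and null proliferating, and 72.5 ± 8.28 and 101.3 ± 7.45 in intact and null differentiating cells. These shares are a description, with no test.

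**Figure D3:**
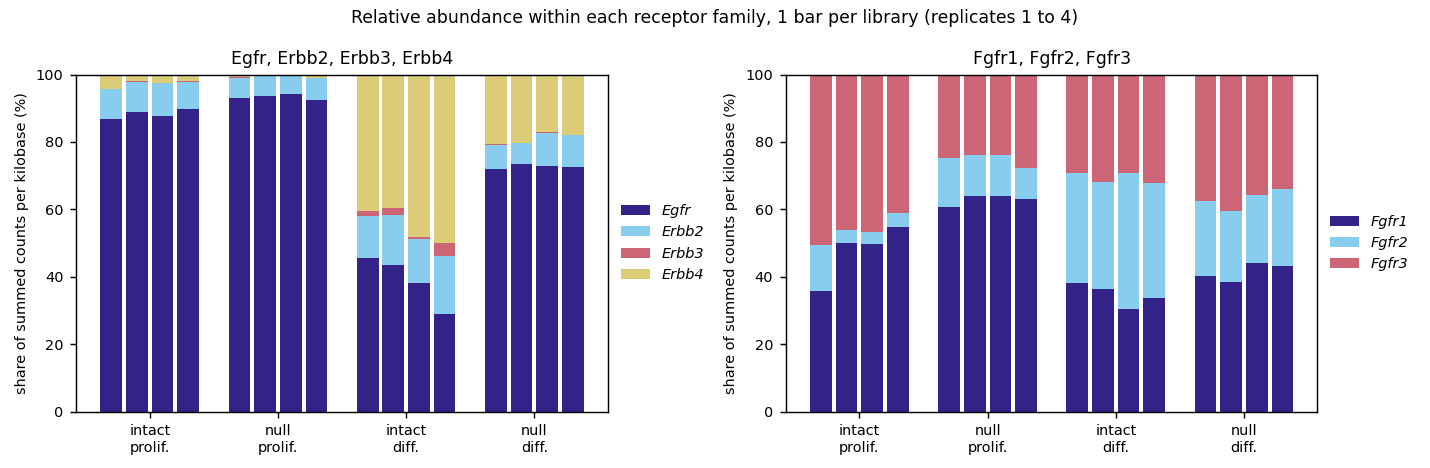
Share in percent (vertical axis) of each gene in the summed per-length level of its family, as a stacked bar per library, in the 4 groups of 4 libraries. In the EGF family the mean Egfr share is 39.0% in intact and 72.7% in null differentiating cells, where the mean Erbb4 share is 44.6% and 18.95%.

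Genes with a profile closest to each receptor over the 16 libraries were taken as those with the smallest root mean square difference of centred log2 CPM, among 12211 genes. For Egfr they were Greb1 (0.24), Cdk6 (0.38), the kinase partner of D-type cyclins, and Ucp2 (0.38). The mean level of Greb1 was 6.46 and 9.62 CPM in intact and null proliferating cells and 0.869 and 4.66 CPM in intact and null differentiating cells. For Erbb4 the closest were Dipk1c (0.42), Nkain4 (0.44) and Spire2 (0.46). For Erbb3 they were Fam184a (0.51), Ehd3 (0.51) and Plxnb3 (0.52), and for Fgfr2 they were Kif21a (0.33), Pde9a (0.36) and Rab36 (0.36). Erbb2 and Fgfr3 shared Ttc23 (0.17 and 0.19) and Fhod1 (0.17 and 0.25) among their closest 3. The closest to Fgfr1 were Rgs20 (0.13), Prdx1 (0.13) and Tulp3 (0.14). The points share libraries and group structure, and these values are descriptions.

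The ligand genes Tgfa, Areg, Nrg1 and Nrg3 were lower in null than in intact differentiating cells. Counts of called genes in this and the following lists stand against the shares over all genes tested. These were 19.0% higher and 19.7% lower in null proliferating cells, and 24.3% higher and 22.0% lower in null differentiating cells. Of 11 EGF-family ligand genes, 8 passed the filter on low counts; 4 were lower and 0 higher in null differentiating cells (median log2 fold change -0.74, against 0.04 over all genes tested), and 2 were higher and 2 lower in null proliferating cells (median -0.25, against -0.01). Tgfa, a ligand of EGFR, rose on differentiation in both genotypes, by 2.58 ± 0.294 in intact (3.21 without both intact libraries numbered 1) and 2.91 ± 0.308 in null cells. It was lower in null cells while proliferating (18.6 ± 11.99 CPM intact, 5.28 ± 1.10 null; -1.73 ± 0.305, adjusted p = 4.34e-04, edgeR) and while differentiating (116 ± 22.6 intact, 41.1 ± 4.74 null; -1.40 ± 0.279, adjusted p = 8.12e-04). Hbegf, another EGFR ligand, was higher in null proliferating cells (32.2 ± 3.57 CPM intact, 67.9 ± 19.4 null; 1.15 ± 0.169, adjusted p = 9.43e-05) and fell on differentiation in both genotypes. Areg, which encodes amphiregulin, had 138 counts in intact and 8 in null differentiating libraries (-4.25 ± 0.95, adjusted p = 0.00164), and the value was -4.90 (adjusted p = 0.00268) without null differentiating library 1. Nrg1, a ligand of ERBB3 and ERBB4, was lower in null cells at both stages (-2.53 ± 0.395, adjusted p = 1.53e-04 while proliferating; -3.45 ± 0.387, adjusted p = 6.19e-06 while differentiating). Nrg3, a ligand of ERBB4, had 1348 counts in intact and 3 in null differentiating libraries, a null level of 0.178% of the intact one (95% counting interval 0.0366 to 0.520%). The intact differentiating libraries spread widely for Nrg3, at 10.95 ± 11.29 CPM with a range of 1.30 to 27.2. Without the highest of them, library 1, the null level was 0.404% of the intact one, and without null differentiating library 3 it was 0.0886%. Egf itself was at 1.15 to 1.87 CPM on average in every group and was not called between genotypes at either stage. In the processing of ligands, Adam10, a membrane protease that releases EGF and betacellulin, was higher in null cells at both stages (0.44 ± 0.0619, adjusted p = 6.52e-05, and 0.31 ± 0.0618, adjusted p = 9.37e-04). Rhbdf2, a carrier of ADAM17, was lower in proliferating null cells (-1.76 ± 0.358, adjusted p = 0.00126). These were 1 gene higher and 1 lower of the 4 genes of that list in proliferating cells, and 1 higher and 0 lower in differentiating cells (median -0.01 and 0.22).

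Of 18 secreted FGF genes, 7 passed the filter; 1 was higher and 2 lower in null proliferating cells (median -0.03), and 1 higher and 3 lower in null differentiating cells (median -0.78). Fgf1, which binds all FGF receptors, was higher in null cells at both stages (45.4 ± 9.63 CPM intact and 68.7 ± 33.5 null while proliferating, 0.67 ± 0.253, adjusted p = 0.0479, edgeR; 15.6 ± 0.681 and 36.8 ± 6.01 while differentiating, 1.33 ± 0.259, adjusted p = 7.02e-04). The proliferating call was lost in 12 of 16 fits that left out 1 library (adjusted p = 0.0533 to 0.237), with 0.27 (adjusted p = 0.237) without null proliferating library 4 and 0.51 (adjusted p = 0.121) without intact proliferating library 1. Fgf2 was between 0.355 and 0.471 CPM on average and was not called in either genotype comparison. Fgf10 had 0 counts in null cells at both stages, against 28 counts in intact proliferating and 232 in intact differentiating cells. Taking 3 counts per group as the floor, it was at least 12.4-fold and 97.0-fold lower. These bounds were 8.19-fold without null proliferating library 4 and 45.3-fold without intact differentiating library 1, the highest of a group at 1.89 ± 1.83 CPM. Fgf5 had 0 counts in null and 50 in intact proliferating cells (at least 22.1-fold lower, or 14.6-fold without null proliferating library 4), and 1 and 93 in differentiating cells, a null level of 0.858% of the intact one (95% counting interval 0.0215 to 4.90%; 1.47% without intact differentiating library 1). The 1 null count was in differentiating library 3. Fgf7 had 3 counts in null and 76 in intact differentiating cells (3.15%, 0.635 to 9.56%; 1.57% without null differentiating library 3). Of 4 genes for other FGF receptors and co-receptors, Fgfrl1, a receptor without a kinase domain, was the 1 that passed the filter. It was 1.29 ± 0.156 higher in null differentiating cells (adjusted p = 1.28e-05; 46.0 ± 13.6 CPM intact, 105.0 ± 7.57 null) and 0.03 ± 0.154 in proliferating cells (adjusted p = 0.913).

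Heparan sulfate proteoglycans, which hold FGFs at their receptors, moved in both directions, in differentiating cells at about the shares over all genes tested. Of 12 genes, all tested, 2 were higher and 4 lower in null proliferating cells (median -0.25) and 3 were higher and 3 lower in null differentiating cells (median -0.03). Gpc4 was higher at both stages (1.89 ± 0.305, adjusted p = 2.18e-04, and 1.22 ± 0.304, adjusted p = 0.00421, edgeR). Gpc6 was higher in null proliferating cells (0.68 ± 0.118, adjusted p = 3.99e-04) and lower in null differentiating cells (-1.61 ± 0.122, adjusted p = 2.02e-07). Sdc4 was higher in null differentiating cells (11.04 ± 1.13 CPM intact, 49.9 ± 11.4 null; 2.27 ± 0.345, adjusted p = 8.87e-05).

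Of 13 receptor inhibitors and modulators, 0 were higher and 5 lower in null proliferating cells (median -0.07), and 3 were higher and 3 lower in null differentiating cells (median 0.13). Lrig1, which promotes the breakdown of EGFR-family receptors, was at 518 ± 14.3 CPM in intact and 665 ± 74.7 in null proliferating cells (0.44 ± 0.184, adjusted p = 0.0734, edgeR). In differentiating cells it was at 193 ± 58.2 and 421 ± 87.3 CPM (1.22 ± 0.187, adjusted p = 9.29e-05). Its response differed between genotypes by 0.78 (adjusted p = 0.042), the same direction as for Egfr, a call lost in 9 of 16 fits that left out 1 library (0.68 to 0.79; adjusted p = 0.0648 to 0.0875). Il17rd, an FGF receptor antagonist also called Sef, was lower in null proliferating (-0.82 ± 0.186, adjusted p = 0.00288) and higher in null differentiating cells (1.25 ± 0.183, adjusted p = 6.33e-05), as Fgfr3 was. Flrt2 and Flrt3, of the family of FLRT proteins that bind FGF receptors, were lower at both stages, Flrt2 by -2.28 ± 0.223 (adjusted p = 2.74e-06) and -1.81 ± 0.213 (adjusted p = 9.64e-06).

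Downstream of the receptors, 3 of 12 adaptor genes were higher and 2 lower in null proliferating cells (median -0.04), and 6 were higher and 4 lower in null differentiating cells (median 0.21). Gab2 was higher at both stages (0.84 ± 0.0747, adjusted p = 1.26e-06, and 0.42 ± 0.0737, adjusted p = 3.12e-04, edgeR) and Shc2 lower at both (-3.08 ± 0.257, adjusted p = 7.2e-07, and -0.88 ± 0.209, adjusted p = 0.00298). Of 10 genes of the RAS-ERK core, 3 were higher and 2 lower in null proliferating cells (median -0.04), and 1 was higher and 2 lower in null differentiating cells (median -0.04). Map2k1, which encodes MEK1, was higher (1.02 ± 0.137, adjusted p = 4.3e-05) and Nras lower (-0.93 ± 0.104, adjusted p = 9.71e-06) in null proliferating cells.

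Feedback genes that ERK signalling induces fell on differentiation whether or not Kat7 was intact. Of 12 genes, 10 fell and 1 rose in intact cells and 11 fell and 0 rose in null cells, with median log2 fold changes of -2.14 and -2.25. Of all genes tested, 35.3% fell and 36.7% rose in intact cells, and 34.4% fell and 34.6% rose in null cells. In differentiating cells, where Egfr, Fgfr1 and Fgfr3 were higher in null cells, 2 of the 12 were higher and 6 lower in null cells (median -0.36). When 1 library was left out, these counts ranged from 2 to 4 higher and from 4 to 6 lower. Among the lower genes, Etv1 lost its call in 13 of 16 such fits and Dusp6 in 5 of 16. In proliferating cells 2 were higher and 0 lower (median 0.17). Spry4, an inhibitor of receptor tyrosine kinase signalling, was at 12 ± 5.29 CPM in intact and 4.05 ± 0.708 in null differentiating cells (-1.48 ± 0.342, adjusted p = 0.00248, edgeR). Spry1, of the same family, was at 18.98 ± 3.14 and 10.4 ± 1.13 CPM (-0.79 ± 0.199, adjusted p = 0.00456). Spry2 went the other way, at 42.4 ± 9.44 CPM in intact and 78.9 ± 6.63 in null differentiating cells (0.98 ± 0.160, adjusted p = 1.58e-04). Dusp6, the ERK phosphatase, was named after its values were seen. It fell from 191 ± 63.7 to 11.8 ± 8.90 CPM in intact and from 266 ± 75.1 to 4.68 ± 0.661 CPM in null cells, and its responses differed by -1.81 (adjusted p = 0.0429). That call was lost in 14 of 16 fits that left out 1 library (-1.91 to -1.13; adjusted p = 0.0501 to 0.101), with the value nearest 0 without intact differentiating library 1. The interaction was called for 3 feedback genes with a lower null response and for 1 with a higher one. Over all genes tested, 9.93% were called lower and 12.7% higher. When 1 library was left out, the counts of feedback genes were 2 to 5 and 1 to 2.

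**Figure D4:**
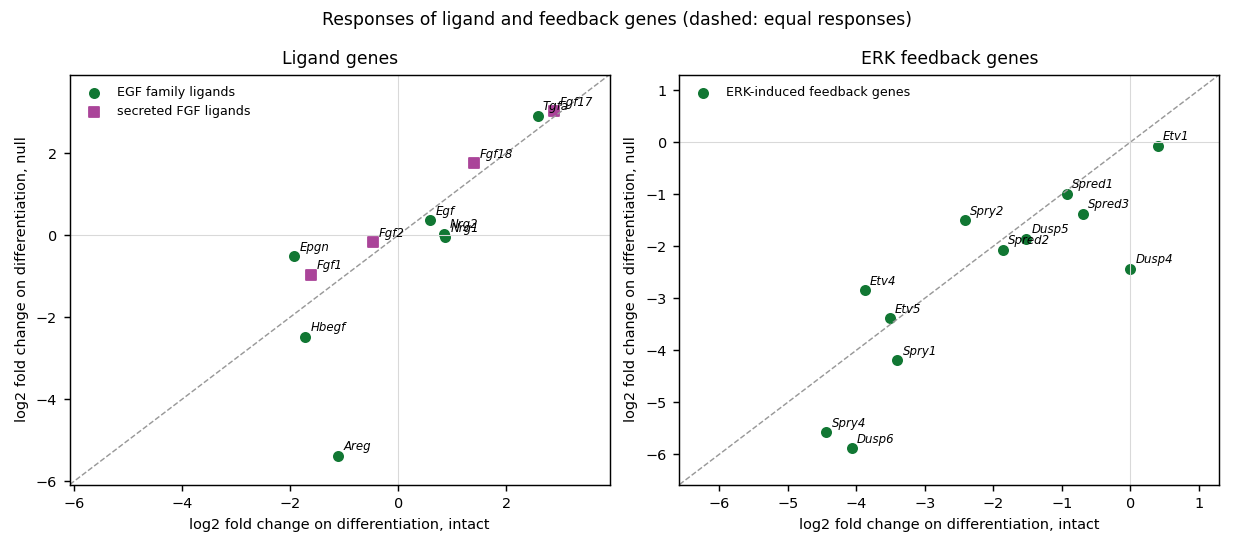
Log2 fold change on differentiation in intact (horizontal axis) and null cells (vertical axis) of ligand genes with more than 3 counts in every group and of ERK feedback genes, 1 point per gene, with a dashed line where the responses are equal. Areg lies far below the line at -1.11 and -5.38, and Dusp6 and Spry4 lie below it while Spry2 and Etv4 lie above it. The interaction was not called for Spry4 and Etv4, and the call for Dusp6 was lost in 14 of 16 fits that left out 1 library.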

How the data were processed

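The receptor genes, the pathway and marker lists and the tests were chosen with earlier results of these data known. The deposited values are whole-number read counts per gene, 1 library per file, and the deposited files also give the length of each gene model. The submitters' processing notes name bcl2fastq, featureCounts and the build mm10. Per the labels' protocols, TruSeq libraries were read as 75-base pairs. The sources used here name no aligner, annotation, strand setting or version. Reads from antisense or overlapping genes therefore cannot be separated. A combined table of the same counts was not used. Symbols came from the RefSeq table of GRCm38, which matched 25275 of 27179 identifiers.

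An edgeR 4.0.16 model (R 4.3.3) took the counts of all 16 libraries: filterByExpr with a minimum count of 10 (15177 genes, the 7 receptor genes among them), scaling by trimmed mean of M values (TMM), 1 mean per group, quasi-likelihood tests and Benjamini-Hochberg adjustment over all genes at 0.05 (common biological coefficient of variation 0.200). Fold changes are log2, with a prior count of 0.125. SE was obtained by dividing the unshrunk fold change by the root of its F statistic, and it can be too small at low counts. CPM uses the library total and per-length levels add the gene length. Without a spike-in, values compare a gene with the rest of its library. Library totals were 16784286 to 47890535, and replicates correlated at r = 0.948 to 0.994 on log2 CPM. Counting intervals cover counting error only. On simulated counts for proliferating cells (15014 genes), 36 of 50 genes at 0.5-fold, 41 of 50 at 2-fold, 25 of 50 at 0.667-fold, 18 of 50 at 1.5-fold and 8 of 14814 unchanged genes were called. The labels give 4 foetuses per genotype without saying which library came from which, and p-values measure the spread between these libraries.

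All 7 receptor genes and Kat7 are named in every comparison. From each pathway list up to 4 called genes with the lowest adjusted p in each genotype comparison could be named, and any ligand that passed the filter, and of these the text prints a part chosen after the values were seen. The 3 closest profiles used genes that averaged 2 CPM or more in a group and a prior count of 2. Alternatives were other scalings, DESeq2 1.42.0, other filters, the 8 libraries of a comparison alone, replicate blocks, robust dispersion, a minimum change of 1.5-fold and leaving out each library. Leaving out libraries for the pathway lists was added after seeing the data.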

Additional observations from a re-analysis of the deposited data

Results flagged for a closer look

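Of 28 sets of 4 libraries (7 genes in 4 groups), 4 held a library far from the other 3. Chance gives about 1 in 20. Fgfr2 stood at 87.9 CPM and Fgfr1 at 215.7 CPM in intact proliferating library 1, Fgfr3 at 131.9 CPM in null proliferating library 4 and at 78.33 CPM in intact differentiating library 1. The last of these was only just over the cutoff, with a ratio of 0.8295. Intact proliferating library 1 is high for Fgfr2 and low for Fgfr1.

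The response to differentiation differed between genotypes for 5 genes, on the log2 scale by 2.10 for Egfr, 2.02 for Erbb4, 1.72 for Fgfr3, 1.04 for Erbb2 and 0.43 for Fgfr1 (interaction test, edgeR). The last lost its call in 14 of 26 alternatives and Erbb2 in 1.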

How the results depend on the processing

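Of 35 fold changes (7 genes, 5 comparisons), 21 kept their direction and their side of the threshold under every alternative run, and 1 changed direction. That was Fgfr2 between genotypes in differentiating cells, at -0.12 over all libraries and 0.0087 (adjusted p = 0.989) without intact differentiating library 3, with no call in either. Leaving out 1 library at a time it ranged from -0.2055 to 0.0087. Tested against a minimum change of 1.5-fold, 1645 genes were called between genotypes in proliferating cells and 2641 in differentiating cells, against 5864 and 7036. For the responses of intact and null cells 5730 and 5150 genes were called, against 10926 and 10468, and for the interaction 766 against 3442. Receptor genes called were 2 of 7 in proliferating cells, 2 for the null response and 3 for the interaction. This test asks for a larger change by construction. Leaving out 1 library at a time gave 5013 to 6770 and 6263 to 7742 genes between genotypes, 10437 to 11279 and 9986 to 11000 for the responses of intact and null cells, and 2834 to 4032 for the interaction. The receptor genes called were then 3 to 5, 5 to 5, 7 to 7, 5 to 6 and 4 to 6. With scaling by library size only, 36.7% of the called genes were higher in null proliferating cells against 49.1% with TMM, and 39.4% against 52.5% in differentiating cells. The Egfr level in null proliferating cells was 526.3 CPM over the TMM library size, against 500.4 CPM.

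Between stages, the residuals of the intact libraries numbered 1, 2 and 4 correlated with those of the same number at 0.126, 0.123 and 0.117, and those numbered 3 at -0.231. Null libraries lay between -0.0284 and 0.0331. Since not every correlation was over 0.1, the numbers were not taken as pairs. The replicate block joins libraries of the same number over both genotypes and stages, so it is not a block by foetus. With a replicate block, 5 receptor genes were called in proliferating cells against 4, as Egfr (0.31; adjusted p = 0.0568) lost its call and Erbb3 (-1.75; adjusted p = 0.0308) and Fgfr2 (1.04; adjusted p = 0.0409) gained one. The block moved 5864 called genes to 5640 there and changed no other call of a receptor gene. A block by genotype and number was fitted for the stage comparisons and the interaction only. It called 7 receptor genes for the intact response, 5 for the null response and 5 for the interaction, as without a block. Without both intact libraries numbered 1, an alternative chosen after seeing the data, the Fgfr2 interaction was -1.92 (adjusted p = 7.61e-06) and Egfr in proliferating cells 0.30 (adjusted p = 0.0675).

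When 1 library was left out, an alternative for the pathway lists chosen after seeing the data, small counts of called genes moved. Feedback genes higher in null differentiating cells went from 2 to 4 without intact proliferating library 1, and those higher in null proliferating cells from 2 to 1 without that library or null proliferating library 3. Feedback genes lower in null differentiating cells ranged from 4 to 6. Inhibitors and modulators higher in null differentiating cells went from 3 to 5 without intact differentiating library 1, and those higher in null proliferating cells ranged from 0 to 2. RAS-ERK core genes lower in null proliferating cells ranged from 2 to 4.

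Depth limits Erbb3 most, with 9 counts over the 4 null proliferating libraries.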
